A study of Mus musculus with 4 samples.

Results

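The genes described here are 7 subunits of the GABA-A receptor, Gabra2, Gabra3, Gabra4, Gabra5, Gabrb1, Gabrb2 and Gabrg1, among the 55421 genes listed for each library of cultured mouse prefrontal cortex (PFC). They were taken by name, with gene identifiers matched to symbols through the GENCODE M21 annotation of mm10, and all 7 were found and passed the expression filter that left 17144 genes for testing. The cultures came from the PFC of wild-type C57BL/6 mice at postnatal day 0, and RNA was sequenced after 10 days in culture. Both groups grew in the same medium, and the treated group also received FGF2 (fibroblast growth factor 2, a growth factor often added to cultures of neural cells) at 5 ng/mL. Each group had 2 libraries, numbered 1 and 2, and the question was how the RNA of these subunits differed with FGF2. Whether the 2 libraries of a group came from separate cultures is not given for the mouse samples, and how many pups were pooled was not found in the sources used here. The authors state biological replicates for some human samples and technical replicates for the others, without naming the mouse samples. The p-values therefore measure only the spread between these libraries, which may be technical.

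GABA-A receptors are chloride channels built from several subunits and opened by GABA, the main inhibitory transmitter of the adult brain. Most hold a pair of alpha subunits, a pair of beta subunits and a gamma or delta subunit, with GABA binding between alpha and beta. The alpha subunit shapes where a receptor sits and how fast it responds, and the gamma subunit helps to hold receptors at synapses. In newborn rodent cortex alpha2, alpha3 and alpha5 are prominent. Astrocytes carry some of these subunits as well.

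Each library held 9166432 to 10799886 counts on genes. Of the 17144 genes tested, 40.5% passed an adjusted p of 0.05 in edgeR's quasi-likelihood test, 20.7% higher and 19.9% lower with FGF2. Neuronal and astrocyte markers were both present in both groups, and the 8 astrocyte markers had the larger sum in every library. The summed level of 12 pan-neuronal markers ranged from 3857 to 3977 CPM (counts per 1000000 counts of the library after TMM adjustment) with FGF2 and from 5559 to 5578 CPM without. Of the 12, 10 fell, 1 did not pass and 1 rose, Nefl, with means of 39.3 CPM with FGF2 and 30.3 CPM without. The 10 inhibitory neuron markers all fell, with a sum of 781 CPM in both libraries with FGF2 against 1364 to 1407 CPM, while 4 of 8 excitatory neuron markers fell. Of 8 astrocyte markers 7 rose, with a sum of 12342 to 12460 CPM against 7498 to 7546 CPM, and the 8 tested oligodendrocyte lineage markers of 9 listed all rose, from 491 to 505 CPM in sum without FGF2 to 1584 to 1604 CPM. Of 7 microglial markers 2 rose and 4 were too low to test, at summed levels of 11.9 to 14.8 CPM with FGF2 and 5.81 to 6.10 CPM without. Fibroblast and mural markers summed to 62.9 to 66.3 CPM with FGF2 and 50.3 to 51.9 CPM without, but the genes moved in opposite directions. Of the 6 tested, 2 fell, 2 rose and 2 did not pass. Col1a1 and Col1a2 fell, at log2 fold changes (FGF2 over no FGF2) of -2.18 and -1.73. Pdgfrb and Rgs5 rose, at 0.73 and 1.89. Endothelial markers summed to under 10 CPM in every library, with Cldn5 at 0. In such bulk RNA, fewer neurons and less subunit RNA per neuron cannot be told apart.

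Of the 7 subunits, 4 fell with FGF2, 0 rose and 3 did not pass the threshold. All 4 that fell are alpha subunits, and no member rose at an unadjusted p of 0.05 in edgeR or at an adjusted p of 0.05 in DESeq2 or limma-voom. Among all tested genes 19.9% fell. In 6 of the 7, both libraries with FGF2 lay below both libraries without it, which was so for 33.4% of all tested genes, while both lay above in 33.6%. The median log2 fold change (FGF2 over no FGF2) of the 7 was -0.37, beside -0.00082 over all tested genes and -0.43 over the pan-neuronal markers. Summed over the 7, subunit RNA stood at 386.9 and 400.5 CPM with FGF2 and at 458.9 and 466.4 CPM without. The sum of the 4 alpha members was 133 and 140 CPM against 182 and 190 CPM, and that of the beta members Gabrb1 and Gabrb2 was 247 and 250 CPM against 270.1 and 269.7 CPM.

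Gabra2 encodes alpha2, an alpha subunit of synapses on the cell body and the start of the axon, and had the largest fall of the 7. Its counts were 146 and 167 with FGF2 against 293 and 282, or 16.1 and 17.0 CPM against 27.9 and 26.0 CPM. The groups lay far apart, and each pair of libraries was close together. The mean was 16.5 ± 0.629 CPM with FGF2 and 27.0 ± 1.30 CPM without (SD, n = 2), a difference of -0.70 on the log2 scale (SE 0.13, 95% interval -0.96 to -0.45; edgeR adjusted p = 6.43e-07), or 38.6% lower.

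Gabra5 encodes alpha5, found largely outside synapses, where it carries tonic current. Its libraries held 58.6 and 55.3 CPM with FGF2 and 74.5 and 77.6 CPM without. The spread within each group was small beside the gap between them. Means were 57.0 ± 2.35 and 76.1 ± 2.17 CPM (SD, n = 2), and the log2 fold change was -0.42 (SE 0.079, 95% interval -0.57 to -0.26; edgeR adjusted p = 8.9e-07), or 25.1% lower.

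Gabra3 encodes alpha3, a subunit abundant in the young cortex. Its levels were 37.8 and 46.1 CPM with FGF2 and 52.1 and 56.6 CPM without. Library 1 with FGF2 was the lowest, and library 2 with FGF2 lay closer to the lower untreated library than to library 1. With means of 41.9 ± 5.84 and 54.3 ± 3.22 CPM (SD, n = 2), the log2 fold change was -0.37 (SE 0.091, 95% interval -0.55 to -0.19; edgeR adjusted p = 0.000205). Without FGF2 library 1 it was -0.24 and no longer passed (edgeR adjusted p = 0.0529).

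Gabra4 encodes alpha4, which often pairs with delta in receptors outside synapses. It stood at 20.8 and 22.1 CPM with FGF2 and at 27.1 and 29.8 CPM without, so the groups did not overlap. Means were 21.4 ± 0.873 and 28.5 ± 1.92 CPM (SD, n = 2), with a difference of -0.41 on the log2 scale (SE 0.12, 95% interval -0.65 to -0.17; edgeR adjusted p = 0.00319). The call was lost in DESeq2 (adjusted p = 0.106) at the same log2 fold change of -0.41, and in edgeR without untreated library 2, where the log2 fold change was -0.34 (adjusted p = 0.0885).

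Gabrb1 encodes beta1, and beta subunits supply the other face of the GABA site. It had the most counts of the 7, at 200.9 and 202.2 CPM with FGF2 and 219.3 and 216.4 CPM without. The groups were narrow and did not overlap, but they lay close together. The log2 fold change was -0.11 (SE 0.048, 95% interval -0.21 to -0.017), with means of 202 ± 0.937 and 218 ± 2.03 CPM (SD, n = 2), and the edgeR adjusted p of 0.0509 just missed the threshold. With library totals in place of TMM scaling the log2 fold change was -0.13 and passed (edgeR adjusted p = 0.0205).

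Gabrb2 encodes beta2, a subunit common in the adult forebrain. Levels were 46.3 and 47.7 CPM with FGF2 and 50.8 and 53.3 CPM without. The groups did not overlap, and the gap between them was little wider than the spread of the untreated pair. The means were 47.0 ± 0.989 and 52.1 ± 1.75 CPM (SD, n = 2), and the log2 fold change of -0.15 (SE 0.089, 95% interval -0.32 to 0.028) did not pass (edgeR adjusted p = 0.186).

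Gabrg1 encodes gamma1, the least common of the cortical gamma subunits, and had the fewest counts of the 7, with 58 and 100 with FGF2 and 76 and 71 without. These are 6.39 and 10.2 CPM against 7.23 and 6.56 CPM. The groups overlapped, since library 1 with FGF2 was the lowest of the 4 and library 2 with FGF2 the highest. Means were 8.28 ± 2.67 and 6.90 ± 0.478 CPM (SD, n = 2), and the log2 fold change of 0.27 (SE 0.22, 95% interval -0.15 to 0.70) did not pass (edgeR adjusted p = 0.339). Without FGF2 library 2 the sign turned, to -0.11 (edgeR adjusted p = 0.805). The plot of subunit levels by library shows the 7 side by side.

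**Figure D1:**
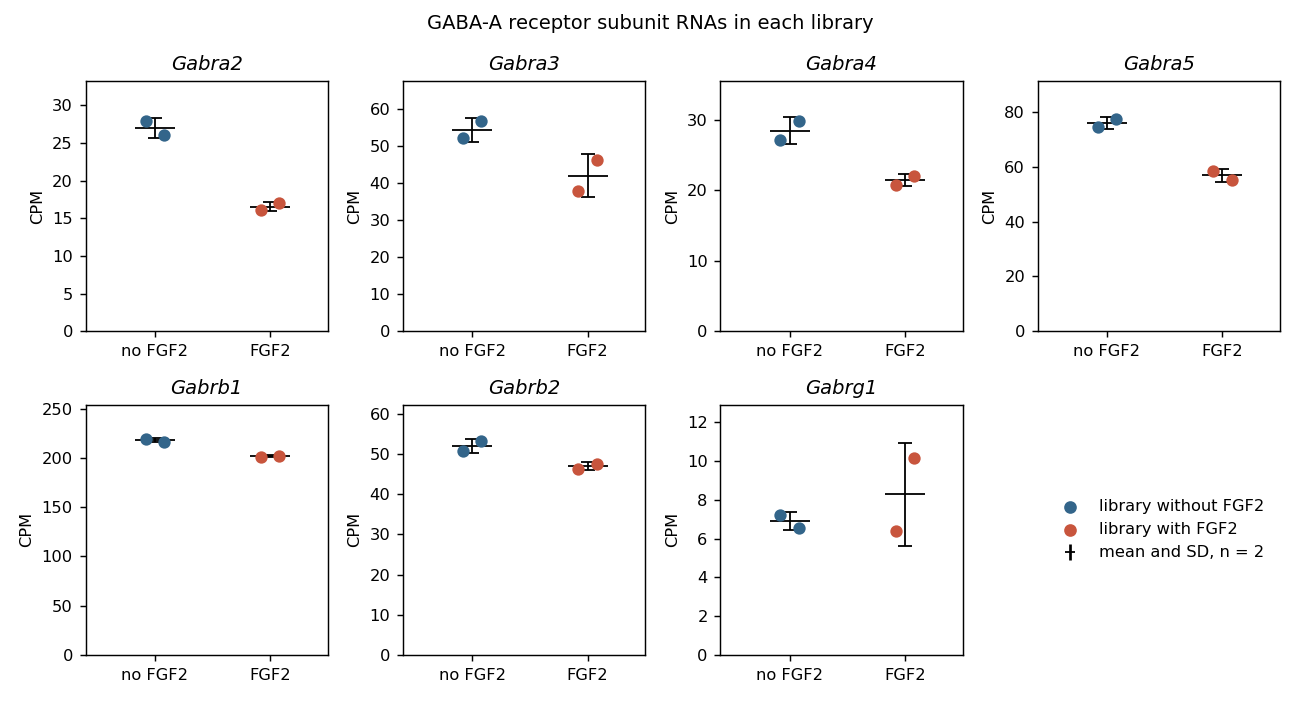
Level of each of the 7 GABA-A receptor subunit genes in CPM (y axis, from 0, with its own scale in each panel) in the libraries without FGF2 (blue) and with FGF2 (red). Points are libraries, and the bars give the mean and SD (n = 2). In Gabra2 the red points at 16.1 and 17.0 CPM lie well below the blue points at 27.9 and 26.0 CPM, while in Gabrg1 the red points lie on both sides of the blue ones.

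The subunit genes lie in clusters, and neighbours in a cluster could differ in their call. On chromosome 5, in mm10 coordinates, Gabrg1 (70751047 to 70842617, minus strand), Gabra2 (70957597 to 71095849, minus strand), Gabra4 (71569749 to 71658308, minus strand) and Gabrb1 (71658113 to 72149037, plus strand) follow each other. A gap of 115.0 kb separates Gabrg1 from Gabra2, and a further 473.9 kb separates Gabra2 from Gabra4. Gabra2 and Gabra4 fell, with log2 fold changes of -0.70 and -0.41, while Gabrb1 at -0.11 and Gabrg1 at 0.27 did not pass. Gabra4 and Gabrb1 start head to head, and their spans overlap by 196 bases. They share 46 exonic bases on opposite strands. The strand setting of the counting is not given in the sources used here, so reads over these bases could fall to either gene or to neither.

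On chromosome 7 Gabra5 (57407672 to 57510059, minus strand) lies beside Gabrg3, and both genes fell. The log2 fold change of Gabrg3, for gamma3, was -0.71 (SE 0.088; edgeR adjusted p = 1.93e-14). An antisense gene, Gm9962, shares 148 exonic bases with Gabra5 (4.98% of its exonic length) and its 4 to 8 counts per library were few beside the 532 to 840 counts of Gabra5.

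On chromosome 11 Gabrb2 (42419757 to 42629028, plus strand) shares a cluster with Gabra6. Gabra6, the cerebellar alpha6 gene, was at 0 counts in every library, below a floor of 3 counts that stands at 0.277 to 0.331 CPM. Gabra3 lies on chromosome X (72432681 to 72656848, minus strand) between Gabre and Gabrq. Gabrq, for theta, had a log2 fold change of -0.039 with an interval from -0.97 to 0.89, so at its depth neither a fall nor a rise of the size of the alpha subunits could be detected.

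**Figure D2:**
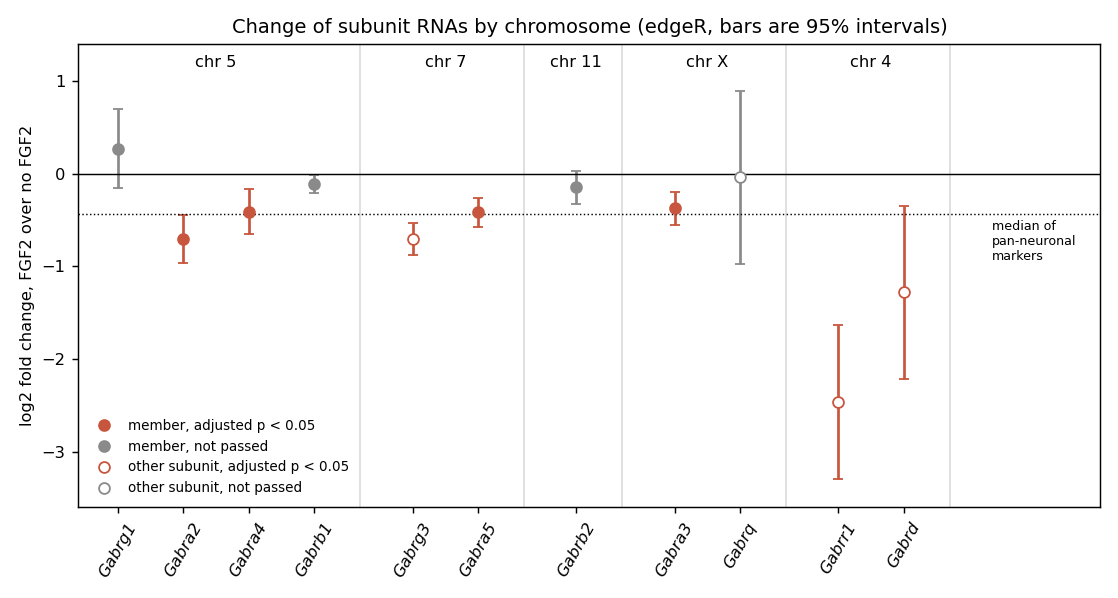
Log2 fold change (FGF2 over no FGF2, y axis) of 11 tested GABA-A receptor subunit genes, grouped by chromosome and ordered by position (x axis). Filled circles are the 7 members and open circles other subunits, red marks an adjusted p below 0.05, bars are 95% intervals and the dotted line is the median of the pan-neuronal markers at -0.43. The intervals of Gabrg3 and Gabra5 on chromosome 7 lie below 0, that of Gabrb2 on chromosome 11 crosses 0, and the chromosome 5 cluster spans -0.70 to 0.27.

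The 250 bases ahead of the RefSeq start were read for the members (GRCm38.p6, 7 of 7 matched). Those of Gabra2 and Gabrg1, neighbours with the lowest and the highest fold change, and of the alpha genes Gabra5 and Gabra3 are printed because they show how unlike the start regions of the members are, while the windows of Gabra4 and Gabrb1 overlap exons and are left out. Capitals mark matches on either strand to 4 motifs. The TATA box was searched as TATAAA. The box named CCAAT was searched by these letters. The GC box was searched as GGGCGG. The E-box was searched as CANNTG, where N is any base. The CRE TGACGTCA was searched too and is in none of these 4 windows, and neither is the AP-1 site TGACTCA. All 4 lie on the minus strand, at chr5:71095850-71096099 for Gabra2, chr5:70842618-70842867 for Gabrg1, chr7:57510060-57510309 for Gabra5 and chrX:72656920-72657169 for Gabra3.
Gabra2: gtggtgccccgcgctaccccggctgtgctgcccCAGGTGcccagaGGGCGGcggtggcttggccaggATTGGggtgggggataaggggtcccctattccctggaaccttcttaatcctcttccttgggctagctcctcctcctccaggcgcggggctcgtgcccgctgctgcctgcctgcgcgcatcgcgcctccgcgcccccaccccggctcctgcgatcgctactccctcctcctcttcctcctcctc
Gabrg1: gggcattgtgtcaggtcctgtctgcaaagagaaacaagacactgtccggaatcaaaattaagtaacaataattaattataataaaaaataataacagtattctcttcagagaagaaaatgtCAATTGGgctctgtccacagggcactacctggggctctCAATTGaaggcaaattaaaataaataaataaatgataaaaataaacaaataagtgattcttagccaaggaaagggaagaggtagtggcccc
Gabra5: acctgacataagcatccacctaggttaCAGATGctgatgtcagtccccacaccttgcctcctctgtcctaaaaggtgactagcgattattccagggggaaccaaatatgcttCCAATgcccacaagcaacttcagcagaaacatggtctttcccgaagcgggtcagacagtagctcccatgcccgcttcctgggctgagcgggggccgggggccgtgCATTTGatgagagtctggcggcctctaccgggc
Gabra3: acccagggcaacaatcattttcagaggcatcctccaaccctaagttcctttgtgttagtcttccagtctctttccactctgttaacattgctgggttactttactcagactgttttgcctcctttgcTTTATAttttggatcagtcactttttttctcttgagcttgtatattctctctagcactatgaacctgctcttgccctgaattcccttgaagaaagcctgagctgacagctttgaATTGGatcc
GC content was 70% in the window of Gabra2, 56.4% in that of Gabra5, 42.4% in that of Gabra3 and 35.6% in that of Gabrg1, beside a median of 52% over 27026 such windows. The Gabra2 window held 18 CpG, that of Gabra5 9, that of Gabrg1 1 and that of Gabra3 0. All 4 hold a CCAAT box, which 34.5% of all windows do. Only Gabra2 among the 4 has a GC box (33.0% of all windows), and only Gabra3 a TATA box (13.0%), which reads TTTATA on the strand printed. The window at the furthest-upstream RefSeq start of Gabrb2, not printed here, holds 1 TATA box, 1 GC box, 1 E-box and 0 CCAAT boxes. Gabra2 has 1 E-box and Gabrg1 and Gabra5 have 2 each, and 66.1% of all windows hold at least 1. In Gabrg1 an E-box and the CCAAT box overlap. AP-1 sites occur in 4.43% and CREs in 1.6% of all windows.

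Levels were next set side by side per length, as CPM per kb of exon. Among the 7, Gabra5 was highest at 19.2 with FGF2 and 25.6 without, followed by Gabrb1 at 14.6 and 15.7, Gabra3 at 10.7 and 13.8, Gabrb2 at 7.39 and 8.19, Gabra4 at 3.53 and 4.68, Gabra2 at 2.16 and 3.53, and Gabrg1 at 1.05 and 0.876 CPM per kb. On this length no neighbours in the order overlapped between their libraries within a group, and the order was the same with and without FGF2. With the length of the longest coding transcript in place of all exons, the order of Gabra3 and Gabrb2 was not stable. Their shares of the summed levels per kb were then 15.3% and 17.9% for Gabra3 and 17.1% and 17.0% for Gabrb2 with FGF2, which overlap, and 17.0% and 17.8% against 15.2% and 15.4% without FGF2, where Gabra3 was higher. The other members kept their places on both lengths.

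**Figure D3:**
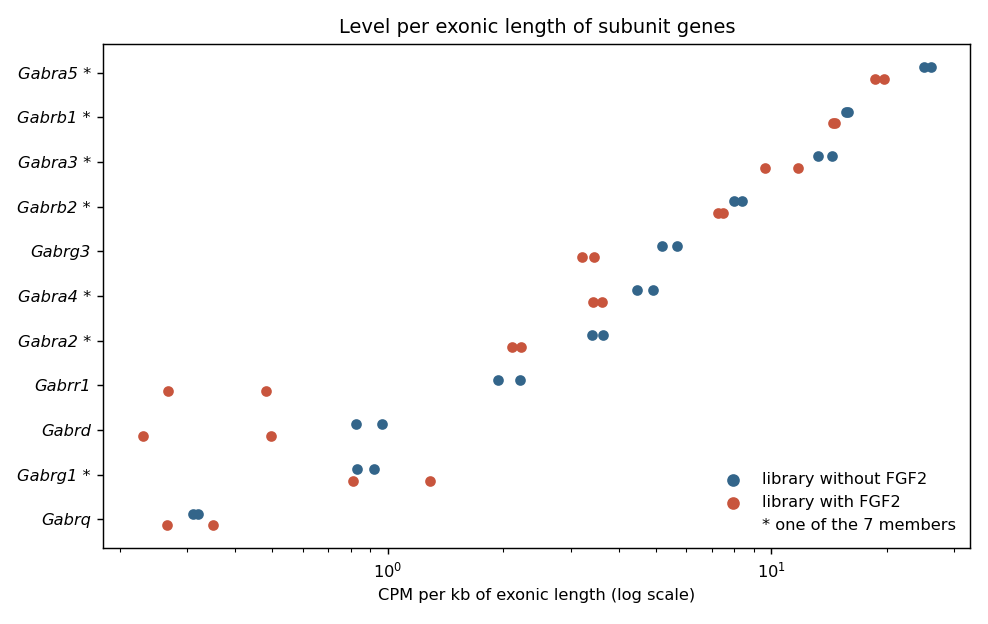
Level per length (CPM per kb of exon, x axis, log scale) of 11 tested GABA-A receptor subunit genes (y axis) in libraries without FGF2 (blue) and with FGF2 (red), with 1 point per library. Gabra5 and Gabrb1 lead the members in both groups, and Gabrg1 is the lowest of the 7 members at 1.05 and 0.876 CPM per kb.

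Shares of the summed RNA of the 7 are given as a description, without a test. Gabrb1 took 51.2% ± 1.01 of the summed counts with FGF2 and 47.1% ± 0.973 without (SD, n = 2 in each group), and it was higher in both libraries with FGF2. The share of Gabra2 was 4.2% ± 0.0575 against 5.83% ± 0.347, that of Gabra5 14.5% ± 0.949 against 16.4% ± 0.282 and that of Gabra4 5.45% ± 0.0890 against 6.15% ± 0.344. For Gabra3 the shares were 10.6% ± 1.22 and 11.7% ± 0.564 and the libraries overlapped. Gabrb2 took 11.9% ± 0.0395 and 11.3% ± 0.25, and Gabrg1 2.1% ± 0.627 and 1.49% ± 0.120. Per kb of exon Gabra5 led with 32.8% ± 2.18 of the sum with FGF2 and 35.3% ± 0.147 without.

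Ratios between members within a library do not depend on scaling. Of the 5 pairs compared, Gabra2 over Gabra5 had log2 ratios of -1.86 and -1.70 with FGF2 and -1.41 and -1.57 without, a difference of -0.29 with no overlap. Gabrg1 over Gabra2, the pair next to each other on chromosome 5, had log2 ratios of -1.32 and -0.73 against -1.93 and -1.97, a difference of 0.93, also with no overlap. In both pairs the exact two-sided permutation p was 0.333, the smallest that 2 against 2 libraries allow, so no pair could pass, adjusted or not. The difference was -0.028 for Gabra4 over Gabra3 (exact permutation p = 1), 0.035 for Gabrb1 over Gabrb2 (exact permutation p = 0.667) and 0.34 for Gabrg1 over Gabrb1 (exact permutation p = 0.667), and in these 3 the groups overlapped. Leaving out FGF2 library 2 turned the sign of Gabra4 over Gabra3, to 0.073, and leaving out untreated library 2 turned that of Gabrb1 over Gabrb2, to -0.0083. The difference of Gabrg1 over Gabrb1 was 0.011 without FGF2 library 2 and 0.66 without FGF2 library 1.

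Because most pan-neuronal markers were lower with FGF2, each member was also set against the mean log2 level of the 12 pan-neuronal markers in its own library. That mean was lower by 0.44 on the log2 scale with FGF2. The edgeR log2 fold changes of the 12 markers ranged from -1.10 to 0.38, so differences from their mean depend on the markers chosen. Relative to this mean, Gabra3, Gabra4 and Gabra5 overlapped between the groups, with differences of 0.060, 0.032 and 0.022 on the log2 scale. Gabra2 was lower with FGF2 in both libraries, at -3.18 and -3.08 against -2.84 and -2.89, a difference of -0.26. The other 3 were higher with FGF2 and did not overlap, by 0.33 for Gabrb1, 0.29 for Gabrb2 and 0.66 for Gabrg1. A gene of unchanged CPM would itself be higher by 0.44 on this scale. How many of all tested genes were without overlap on it was not counted. The value of Gabrg1 was 0.32 without FGF2 library 2 and 1.00 without FGF2 library 1. Thus the direction of Gabrb1 and Gabrb2 depended on the scale, lower in CPM and higher per neuronal marker. This scale moved the median of all tested genes up by 0.44, and an edgeR fit scaled in this way, added after the data were seen, called 10037 genes higher and 658 lower (62.4% of those tested) in place of 3541 and 3408. Among the members it called Gabrb1, Gabrb2 and Gabrg1 higher and none lower. Relative to that shifted median, Gabrb1 and Gabrb2 still lay lower.

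Against the inhibitory neuron markers, whose mean log2 level was lower by 0.99, all 7 were higher with FGF2 with no overlap, from 0.28 for Gabra2 to 1.21 for Gabrg1. A gene of unchanged CPM would itself be higher by 0.99 on this scale, and all members but Gabrg1 lay below that value. Against the excitatory neuron markers the differences were close to those against the pan-neuronal ones, at -0.26 for Gabra2 and 0.33 for Gabrb1. Set against the astrocyte markers, whose mean was higher by 0.47, 6 of the 7 were lower with no overlap, from -0.58 for Gabrb1 to -1.17 for Gabra2, and Gabrg1 at -0.24 overlapped. Here a gene of unchanged CPM would be lower by 0.47. The share of all tested genes without overlap was not counted on any of these marker scales. The part of these cell type markers in the subunit differences was not tested.

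**Figure D4:**
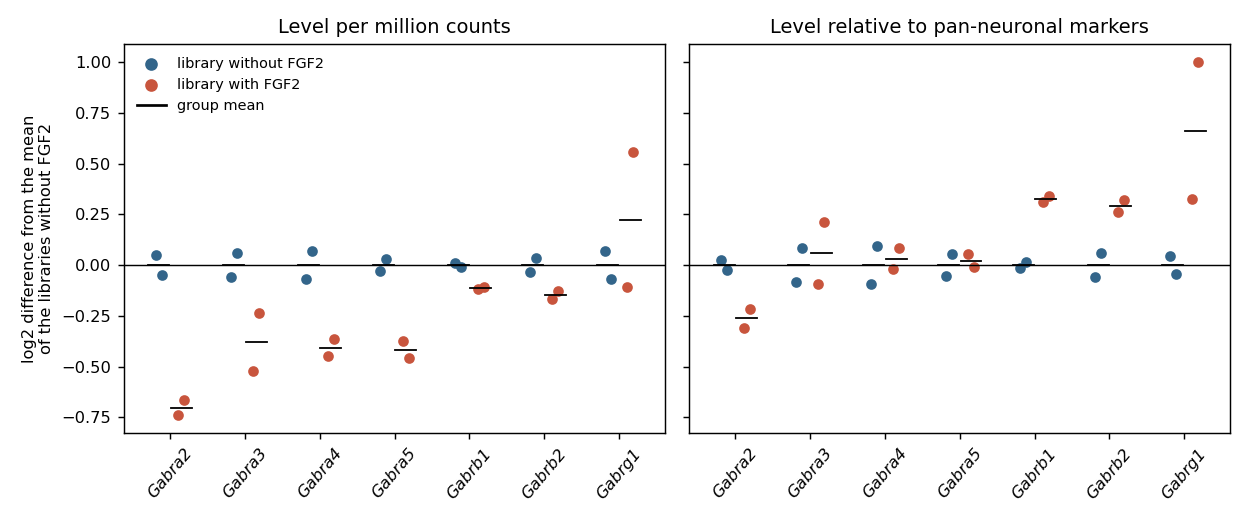
Log2 level of the 7 members (x axis) as a difference from the mean of the untreated libraries (y axis), in CPM on the left and relative to the mean log2 level of the 12 pan-neuronal markers of the same library on the right, without FGF2 (blue) and with FGF2 (red). Points are libraries and black bars group means. On the right, points of Gabra3, Gabra4 and Gabra5 overlap, those of Gabra2 with FGF2 lie 0.26 lower on average, and those of Gabrb1, Gabrb2 and Gabrg1 lie higher by 0.33, 0.29 and 0.66.

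Other subunit genes fell as well. Of the 9 reported here 4 were tested, 3 fell and 1 did not pass, beside 19.9% of all tested genes that fell. The edgeR log2 fold change was below 0 in all 4, with a median of -0.99. Beside Gabrg3, those that fell were Gabrr1, for rho1 of GABA receptors best known from the retina, and Gabrd, for the delta subunit found outside synapses. For Gabrr1 the counts were 53 and 48 without FGF2 and 10 and 6 with it, the largest fall of the 4 (log2 fold change -2.47, SE 0.42; edgeR adjusted p = 4.49e-08). Gabrd had 6 and 14 counts against 25 and 30 (log2 fold change -1.28, SE 0.48; edgeR adjusted p = 0.0204). Counts this low leave wide intervals, from -3.29 to -1.64 and from -2.21 to -0.35.

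Genes that anchor, assemble or move GABA-A receptors were counted as well. Of 20 tested, 12 fell, 3 rose and 5 did not pass, beside 19.9% lower and 20.7% higher among all tested genes. Their median log2 fold change was -0.20, beside -0.43 over the pan-neuronal markers. Hap1, a partner of the motor that carries receptors to the membrane, had 115 and 116 CPM with FGF2 and 212 and 208 CPM without, the largest fall of the list (log2 fold change -0.86, SE 0.055; edgeR adjusted p = 2.47e-53). Shisa7, an auxiliary subunit that sets receptor traffic and kinetics, fell by 0.55 on the log2 scale (edgeR adjusted p = 6.53e-24). Gabarap, which binds the receptor and belongs to a family of autophagy proteins, had the largest rise, at 0.35 (edgeR adjusted p = 3.47e-13). Gphn, which encodes gephyrin, the scaffold of inhibitory synapses, stood at 76.9 and 74.3 CPM with FGF2 and 70.5 and 81.4 CPM without, so the groups overlapped (log2 fold change -0.0074, 95% interval -0.15 to 0.14).

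Glycine receptors, the related chloride channels, had 2 of 5 subunit genes with enough counts to test. Glra2, the alpha2 glycine receptor subunit of immature neurons, was at 15.9 and 14.9 CPM with FGF2 and 26.1 and 24.8 CPM without and fell by 0.72 on the log2 scale (edgeR adjusted p = 7.05e-07). Glrb, the beta subunit that binds gephyrin, did not pass, at a log2 fold change of -0.010 (95% interval -0.18 to 0.16).

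**Figure D5:**
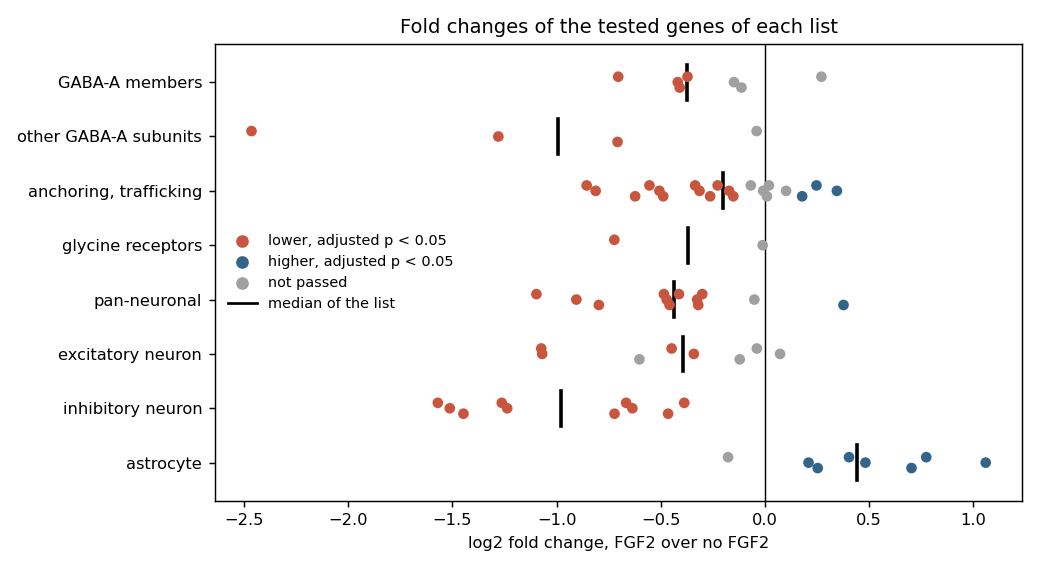
Log2 fold change (FGF2 over no FGF2, x axis) of the tested genes of each list (y axis), with 1 point per gene. Red marks a fall and blue a rise at an adjusted p below 0.05, grey genes did not pass, and the black tick is the median of the list. The medians are -0.37 for the 7 members, -0.99 for other subunits, -0.20 for anchoring and trafficking genes, -0.43 for pan-neuronal, -0.98 for inhibitory and 0.44 for astrocyte markers.

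The genes with the most similar pattern were found as those with the smallest Euclidean distance between centred log2 CPM values over the 4 libraries, among 10838 genes of at least 10 CPM. With so few libraries this measure mostly matches the size of the fold change. Nearest to Gabra2 were Map1lc3a (distance 0.023) and Bop1 (0.038), nearest to Gabra5 were Dnajc5 (0.011) and Apba1 (0.018), nearest to Gabra3 were C1d (0.024) and Fbxl17 (0.034), and nearest to Gabra4 were Noc4l (0.018) and Cfap52 (0.027). Ppfia1 (0.0028) and Plxna3 (0.0031) were nearest to Gabrb1, and Dmwd (0.0079) and Cers5 (0.017) to Gabrb2. Gabrg1 had no gene as close, with Fpgt at 0.090 and Ube3a at 0.10. Its own means, 8.28 CPM with FGF2 and 6.90 CPM without, lay below the 10 CPM required of the compared genes. Genes with counts as few as its own were thus not among them.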

How the data were processed

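Total RNA of 4 libraries was measured, 2 with and 2 without FGF2. The deposited counts are raw read counts per gene, which the authors made by mapping to mm10 with HISAT2 2.1.0, keeping reads with a mapping quality of at least 20 (Samtools) and counting with HTSeq 0.11.2. The annotation release and strand setting are not given in the sources used here. Counts in no gene (43.2% to 45.9% of all tallied) were left out.

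Identifiers were matched to GENCODE M21 (55240 of 55421), which gave names, coordinates and exonic lengths. Counts were tested with the quasi-likelihood test of edgeR 4.0.16 (R 4.3.3; TMM, robust, expression filter by group) and Benjamini-Hochberg adjustment over 17144 genes, with 0.05 as the threshold. TMM factors were 0.992 to 1.01. CPM carry counting error too, and a floor of 3 counts covers counting error only. Log2 levels used a prior count of 1. Replicates differed by more than sampling noise (chi-square per degree of freedom 2.28 and 1.76). Equal replicate numbers are not stated to pair the libraries. The fit was tested on simulated data.

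The alternatives were RLE scaling, library totals, other filters, DESeq2 1.42.0, limma-voom (limma 3.58.1), a replicate block, an adjusted p of 0.01, a prior count of 0.1, each library left out, and, added after the data were seen, transcript lengths and scaling to neuronal markers. BLAST 2.17.0 found a near-identical stretch (at least 100 bases, at least 95% identity) in another gene for 1 member, Gabra5, in the overlapping antisense gene Gm9962. Start regions are from RefSeq.

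The members and lists were chosen with earlier results of these data known. Other genes were named by the largest rise and fall of each list, for a role that a sentence needs (Shisa7, Gphn and Glrb), and for their alikeness to a member. Beyond this rule the remaining subunits, Col1a2 and Pdgfrb were named after their values were seen. Some genes of the family are not reported here and were left out of the counts of other subunits.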

Additional observations from a re-analysis of the deposited data

How the results depend on the processing

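Gabra2 and Gabra5 fell in edgeR, DESeq2 and limma-voom, under every scaling to library size, every filter and each left-out library. DESeq2 called 3999 genes (2068 higher, 1931 lower) in place of 6949, and Gabra4 did not pass at -0.41 (adjusted p = 0.106). Library totals brought Gabrb1 past the threshold at -0.13. The replicate 1 minus 2 differences of the 2 groups had a correlation of 1.3e-05 over all tested genes. Pairing that touches few genes would not show in this value. The fit with the replicate block called 6814 genes and changed the call of no member. With 1 library left out, the remaining library of its group is assumed to vary like the other group. Then 5213 to 6199 genes and 3 to 4 members lower were called, and log2 fold changes ranged from -0.76 to -0.66 (Gabra2), -0.53 to -0.24 (Gabra3), -0.48 to -0.34 (Gabra4), -0.46 to -0.38 (Gabra5), -0.13 to -0.11 (Gabrb1), -0.19 to -0.12 (Gabrb2) and -0.11 to 0.56 (Gabrg1). The ratio Gabra4 over Gabra3 ranged from -0.13 to 0.073, Gabrb1 over Gabrb2 from -0.0083 to 0.079 and Gabrg1 over Gabrb1 from 0.011 to 0.66. Scaled to pan-neuronal markers, an alternative added after the data were seen, the edgeR log2 fold changes were -0.26 for Gabra2 (adjusted p = 0.0755), 0.067 for Gabra3, 0.030 for Gabra4, 0.020 for Gabra5, 0.33 for Gabrb1 (adjusted p = 4.51e-08), 0.29 for Gabrb2 (0.00378) and 0.71 for Gabrg1 (0.00236). Relative to inhibitory markers the differences were 0.28, 0.61, 0.58, 0.57, 0.87, 0.84 and 1.21 in that order. The cause of these changes was not tested, beyond the lower marker level that the scaling itself carries over. The 58 to 100 counts of Gabrg1 limit its precision.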

Other observations

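Subunit genes too low to test still had some counts. The 2 libraries with FGF2 held 3 and 9 counts of Gabre, for the epsilon subunit, and the untreated libraries held 0. The counts of Gabrr2, for rho2, were 1 and 4 with FGF2 against 2 and 3, and Gabrr3, for rho3, had 2 counts in untreated library 1 and 0 in all others. Gabrp, for the pi subunit, was at 0 in all 4 libraries, which allows a level of up to 0.277 to 0.331 CPM by counting error alone.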
